A study of Mus musculus with 4 samples.

Results

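The genes carried by mouse mitochondrial DNA were followed through aortic cells sorted by colour. They were chosen by Ensembl identifier, as genes whose symbol begins with mt-. Of the 37 such genes, 36 had a row among the 32948 genes of the table: all 13 mRNA genes, both ribosomal RNA (rRNA) genes and 21 of the 22 transfer RNA (tRNA) genes. The row of mt-Tw was not analysed here. Cells came from the aortic arch and ascending aorta of mice that all carried Wnt1-Cre and the Rosa26-mTmG reporter. In this reporter every cell makes a red membrane protein, tdTomato, until Cre switches it to green (GFP). The Wnt1 driver switches cells of the neural crest, so GFP cells are descendants of Cre-expressing cells and tdTomato cells are the rest of the digested tissue. One suspension came from 1 female sample and the other was pooled from 2 male samples. Each was sorted into GFP and tdTomato cells, which gave 4 libraries, named here by sex and colour. The labels call all 4 vascular smooth muscle cells and give no age.

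Mitochondrial DNA is a small circle that is copied into long transcripts from both of its strands. These are cut at the tRNAs that lie between the other genes, and most mRNAs and rRNAs so released receive short poly(A) tails. In human cells the mRNA of ND6, from the light-strand transcript, is known as an exception that lacks a regular tail. The mRNAs encode core subunits of respiratory complexes I, III and IV and of the ATP synthase, complex V, while every other subunit, and all proteins that copy, transcribe and translate this DNA, come from the nucleus. The libraries were primed with oligo(dT), which can start copying at such a tail or at a run of A within an RNA, and the kit does not keep the strand.

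Neighbouring genes on this DNA overlap, and 3 of the 13 mRNAs end in a T that becomes a stop codon only with the poly(A) tail. The sequences are shown because reads at these places cannot be given to 1 gene with certainty. They are gene sequences 5′ to 3′ from the GENCODE M21 transcripts of mouse build GRCm38. In mt-Atp8 the capitals mark the 43 bases that also begin mt-Atp6, and in mt-Nd4l the 7 bases that also begin mt-Nd4.
mt-Atp8: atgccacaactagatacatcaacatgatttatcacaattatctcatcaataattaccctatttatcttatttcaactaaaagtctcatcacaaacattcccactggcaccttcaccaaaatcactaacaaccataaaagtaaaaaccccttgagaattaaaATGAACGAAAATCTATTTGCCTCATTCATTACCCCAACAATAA
mt-Nd4l: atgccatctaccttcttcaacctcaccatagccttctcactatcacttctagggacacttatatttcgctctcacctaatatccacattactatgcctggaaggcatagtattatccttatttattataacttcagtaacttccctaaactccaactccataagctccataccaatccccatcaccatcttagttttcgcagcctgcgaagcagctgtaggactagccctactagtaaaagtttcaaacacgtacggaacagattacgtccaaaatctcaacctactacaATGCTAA

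The last 30 bases of the 3 mRNAs with an incomplete stop are given next, with that T in capitals. For contrast, mt-Co1 and the facing pair mt-Nd5 and mt-Nd6 end in a complete stop codon, also in capitals.
mt-Co3: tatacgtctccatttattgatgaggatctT
mt-Nd4: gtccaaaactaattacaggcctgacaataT
mt-Cytb: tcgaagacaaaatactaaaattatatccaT
mt-Co1: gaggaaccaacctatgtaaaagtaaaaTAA
mt-Nd5: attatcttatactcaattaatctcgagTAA
mt-Nd6: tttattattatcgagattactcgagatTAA
The genes mt-Nd5 and mt-Nd6 lie on opposite strands and share 14 bases at their ends. The serine tRNA gene mt-Ts1 faces the end of mt-Co1 in the same way, and its last 3 bases, in capitals, are complementary to the mt-Co1 stop codon.
mt-Ts1: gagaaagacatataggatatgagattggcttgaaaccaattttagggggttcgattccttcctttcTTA

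The male GFP library stood apart before any mitochondrial gene was considered. Its total was 10094326 estimated counts, while the other 3 held 12837282 to 13911281. It had 9517 genes with at least 10 counts, while female GFP had 12008, and the tdTomato libraries had 15669 in the male and 16227 in the female suspension. Of the 8680 genes with a mean of at least 10 counts per 1000000 of the scaled library total (CPM), 23.8% were at 3 counts or fewer in male GFP and 10.2% in female GFP, against 2.79% in male tdTomato and 2.28% in female tdTomato. Malat1, an RNA that stays in the nucleus, held 9.04% of the male GFP library and 4.15% to 4.77% of the others. The smooth muscle list, led by Acta2, Myl9 and Tagln, had all 8 of its genes above 0 in every library, with summed levels of 16570 CPM in female GFP against 12680 CPM in female tdTomato, and 13980 CPM in male GFP against 12070 CPM in male tdTomato. In bulk libraries such as these, fewer cells of a type and less RNA per cell cannot be told apart. With 1 library for each colour and suspension, comparisons within a suspension or within a colour have no test, and intervals cover counting error only.

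Mitochondrial genes took a similar share of 3 libraries and a smaller one in male GFP. All 36 members together held 5.97% of the counts in female GFP and 5.36% in female tdTomato, and 2.19% in male GFP against 5.86% in male tdTomato. The exact 95% binomial interval for male GFP was 2.19% to 2.20%, apart from those of the other 3 libraries. The 13 mRNAs made up 1.97% of female GFP and 1.72% of female tdTomato, and 0.809% of male GFP against 1.81% of male tdTomato. The 2 rRNAs held 3.99% and 3.64% in the female GFP and tdTomato libraries, and 1.38% in male GFP against 4.04% in male tdTomato. Both classes were thus lower in male GFP, and the ratio of summed mRNA to summed rRNA counts stayed between 0.448 in male tdTomato and 0.584 in male GFP. Whether the lower gene detection or the higher Malat1 share of the male GFP library had a part in this was not tested.

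**Figure D1:**
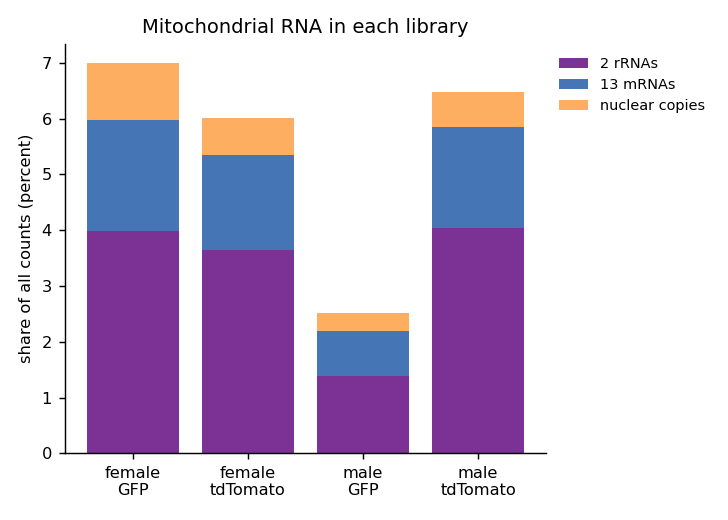
Share of all counts in each library (percent, vertical axis) that fell on the 2 mitochondrial rRNAs, the 13 mRNAs and 6 near-identical nuclear copies of them. Male GFP reaches 2.52% with the copies included, against 6.02% to 6.99% in the other 3 libraries.

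The rRNAs were the most abundant members, and they were lowered unequally in male GFP. mt-Rnr1, the RNA of the small mitochondrial ribosomal subunit, had 10998 CPM in female GFP and 7622 CPM in female tdTomato, and 1809 CPM in male GFP against 8116 CPM in male tdTomato. It was 4.49-fold lower in GFP than in tdTomato cells of the male suspension (interval 4.41 to 4.56). mt-Rnr2, the RNA of the large subunit, had 32251 CPM in female GFP and 26201 CPM in female tdTomato, and 13072 CPM in male GFP against 29185 CPM in male tdTomato. Its male difference was 2.23-fold (2.22 to 2.25). There were 7.23 counts of mt-Rnr2 for each count of mt-Rnr1 in male GFP, while the ratio was 2.93 in female GFP, 3.60 in male tdTomato and 3.44 in female tdTomato.

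Complex I takes electrons from NADH, and its 7 mitochondrial subunits form the core of its membrane arm. mt-Nd1, next to the site where the quinone binds, had 2801 CPM in female GFP and 1599 CPM in female tdTomato, and 879 CPM in male GFP against 1813 CPM in male tdTomato. It was 1.75-fold higher in female GFP (1.72 to 1.78) and 2.06-fold lower in male GFP (2.01 to 2.12) than in tdTomato cells of the same suspension. The antiporter-like subunit mt-Nd2 had 1146 CPM in female GFP and 478 CPM in female tdTomato, and 598 CPM in male GFP against 533 CPM in male tdTomato. It was the only mRNA at least 2-fold higher in GFP cells of either suspension, at 2.40-fold in the female (2.33 to 2.46). mt-Nd4, another antiporter-like subunit, had 2042 CPM in female GFP and 1400 CPM in female tdTomato, and 847 CPM in male GFP against 1377 CPM in male tdTomato. As for mt-Nd1, male GFP was the lowest library and female GFP the highest.

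Of the other complex I mRNAs, 3 had the largest differences of all mRNAs between the male GFP and tdTomato libraries. mt-Nd5, the distal proton-pumping subunit, had 302 CPM in female GFP and 356 CPM in female tdTomato, and 27.3 CPM in male GFP against 345 CPM in male tdTomato. That is 12.7-fold lower in male GFP (11.2 to 14.4). mt-Nd3, a small subunit near the quinone site, had 281 CPM in female GFP and 339 CPM in female tdTomato, and 33.9 CPM in male GFP against 463 CPM in male tdTomato, which is 13.7-fold lower (12.2 to 15.4). mt-Nd6 is the only mRNA made from the light-strand transcript. It had 169 CPM in female GFP and 121 CPM in female tdTomato, and 2.24 CPM in male GFP against 140 CPM in male tdTomato. These levels came from 2128 counts in female GFP and 1816 in female tdTomato, and from 21 in male GFP against 1946 in male tdTomato. The male difference was 62.6-fold (40.8 to 101). Per kilobase of gene the 3 differed in level: in male tdTomato mt-Nd3 stood at 1331 CPM per kilobase, mt-Nd6 at 269.7 and mt-Nd5 at 189. In CPM all 3 were lower in male tdTomato than the other mRNAs tested, except mt-Atp8 at 28.2 CPM. The part of this level in the male difference was not tested. mt-Nd4l, the smallest complex I subunit of this DNA, had 34 counts in female tdTomato (2.27 CPM) and 0 in the other 3 libraries. Taking 3 counts as the floor of a library, it was at least 9.57-fold lower in female GFP than in female tdTomato, with an exact interval that starts at 7.37-fold, and 6.19-fold lower with the nuclear copy described further on. No ratio could be formed for the males without that copy.

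mt-Cytb, the haem-bearing core of complex III, had the smallest difference between male and female GFP of the 12 mRNAs tested, at 1.37-fold lower in the male (1.35 to 1.40). It had 2283 CPM in female GFP and 1324 CPM in female tdTomato, and 1664 CPM in male GFP against 1644 CPM in male tdTomato. The GFP to tdTomato ratio was 1.73 in the female suspension (1.69 to 1.76) and 1.01 in the male one (0.991 to 1.03), where the colours did not differ beyond counting error. mt-Cytb and mt-Nd5 lie near each other on the heavy-strand transcript, yet male GFP had 61.1 mt-Cytb counts for each mt-Nd5 count, while female GFP had 7.55, male tdTomato 4.76 and female tdTomato 3.71.

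The 3 complex IV mRNAs, which encode the catalytic core of cytochrome c oxidase, were all lower in male GFP. mt-Co1, which holds the oxygen-reducing centre, had 2261 CPM in female GFP and 2467 CPM in female tdTomato, and 621 CPM in male GFP against 2095 CPM in male tdTomato. mt-Co2, which accepts electrons from cytochrome c, had 4680 CPM in female GFP and 3303 CPM in female tdTomato, and 1199.9 CPM in male GFP against 3948 CPM in male tdTomato. mt-Co3, a structural core subunit, had 792 CPM in female GFP and 543 CPM in female tdTomato, and 199.7 CPM in male GFP against 633 CPM in male tdTomato. Within the male suspension they were 3.37-fold, 3.29-fold and 3.17-fold lower in GFP cells, and mt-Co3 only 1.62-fold lower once its nuclear copy was added. In the female suspension mt-Co2 and mt-Co3 were 1.42-fold and 1.46-fold higher in GFP cells, and mt-Co1 was at 0.916 of its tdTomato level, or 1.52-fold higher with its copies.

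Complex V turns the proton gradient into ATP. mt-Atp6, the subunit that lines its proton channel, had 4545 CPM in female GFP and 4000.0 CPM in female tdTomato, and 2596 CPM in male GFP against 3708 CPM in male tdTomato. It was 1.43-fold lower in male GFP than in male tdTomato (1.41 to 1.45). mt-Atp8, a small subunit needed to build the complex, had 65.0 CPM in female GFP and 45.0 CPM in female tdTomato, and 20.8 CPM in male GFP against 28.2 CPM in male tdTomato. Both genes lie on 1 bicistronic mRNA with the overlap printed above, but mt-Atp6 had 69.9 to 132 times as many counts, or 20.9 to 39.4 times per base of gene.

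**Figure D2:**
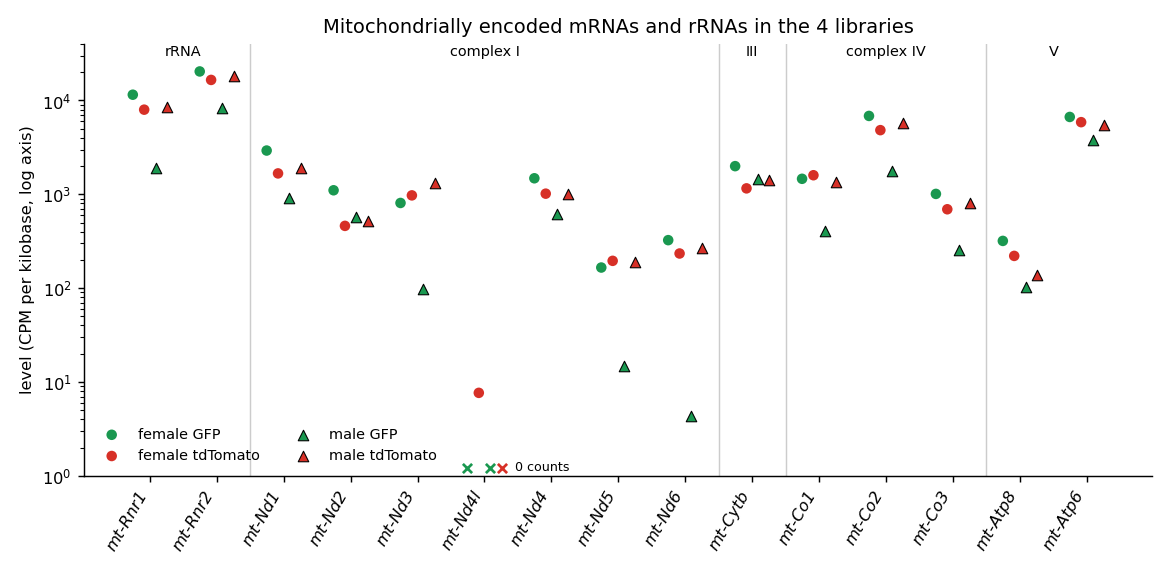
Level of the 2 rRNAs and 13 mRNAs in CPM per kilobase of gene (vertical log axis), with circles for the female and outlined triangles for the male suspension, green for GFP and red for tdTomato. Crosses mark 0 counts. Male GFP is the lowest library for 12 genes, with mt-Nd6 at 4.31, and is not the lowest for mt-Nd2 or mt-Cytb.

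No mitochondrial gene passed the test of GFP against tdTomato cells over both suspensions, in a design of only 2 pairs. In edgeR's quasi-likelihood test with the suspension as a block, 0 of the 19 members tested and 0.0% of the 15055 genes tested passed an adjusted p of 0.05. None of the 19 was at an unadjusted p under 0.05, a level that 1298 of the 15055 genes reached, 44 higher and 1254 lower in GFP. Among those lower were genes at 0 in both GFP libraries, which passed the filter through the tdTomato libraries only. Their number was not taken. DESeq2 called 1157 genes and limma-voom 0, and neither called a member. Among the mRNAs the smallest adjusted p in edgeR was that of mt-Co1, 0.837, at a log2 fold change of -0.94. mt-Nd6 averaged -2.70 ± 4.49 on the log2 scale (SD, n = 2 pairs) and mt-Rnr1 -0.82 ± 1.91, so the spread between pairs exceeded the mean. With male GFP left out, in a fit without the block, 10 mRNAs were higher and 3 lower in GFP cells. With all libraries 3 were higher and 9 lower with the block, and 5 and 7 without it. The fits differ in the block and in whether mt-Nd4l was tested, so these numbers are not like for like. How far male GFP alone accounts for the change was not tested. mt-Nd2 and mt-Cytb were the only mRNAs with a positive ratio in both pairs, averaging 0.71 ± 0.77 and 0.40 ± 0.54, and their male ratios turned negative when counts were scaled by library totals. Negative in both pairs were mt-Nd3 at -0.27 in the female and -3.77 in the male pair, mt-Nd5 at -0.24 and -3.66, and mt-Co1 at -0.13 and -1.75, of which mt-Co1 turned positive in the female pair with its copies. All 5 tRNAs tested were also lower in GFP cells of both pairs, among them mt-Tq at -2.35 ± 1.02 and mt-Tn at -2.04 ± 0.62 (SD, n = 2 pairs). For both the mean exceeded the spread. However, mt-Tn, and mt-Tc with 1 count in female and 6 in male GFP, passed the filter through the tdTomato libraries only. mt-Tq, with 2 counts in male GFP, would not have passed on its GFP libraries. Such a filter favours genes lower in GFP cells, so the shared direction of these tRNAs is no support for a difference. With 2 pairs and 1 residual degree of freedom, the only replication behind these p-values is a female and a male suspension. In edgeR the spread of each gene is also drawn towards that of all genes tested. The fitted common dispersion was 1.47, and in simulated data of that spread no changed gene was recovered. The simulation gave every gene this dispersion and no difference between suspensions, so it sets no limit for single members. The lack of calls does not show that levels were alike.

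Within the female suspension, 9 of the 13 mRNAs had a higher and 4 a lower level in GFP than in tdTomato cells, or 8 and 5 with library totals, where mt-Atp6 turned lower. The median log2 ratio was 0.50, beside -0.27 over all 15055 genes tested. Of the 13, 1 was at least 2-fold higher, mt-Nd2, where 22.0% of all genes tested were, and 1 at least 2-fold lower, mt-Nd4l, where 37.8% were. Within the male suspension 10 of the 13 mRNAs were lower and 2 higher in GFP cells, or 12 and 0 with library totals. They had a median of -1.05, or -1.35 over the 12 tested (without mt-Nd4l, at 0 in both libraries), beside -1.0 over all genes tested. At least 2-fold lower were 7 of them, where 50% of all genes tested were, and 0 were 2-fold higher, where 21.5% were. Scaling moved these medians. With DESeq2 size factors the medians over all genes were -0.15 (female pair) and -0.78 (male pair). With library totals they were -0.48 and -1.20, and the mRNAs' medians moved in step. The median over all genes also depended on their level. In edgeR over both suspensions it was -0.88, and -0.22 with only genes at a mean of at least 50 CPM. With that filter mt-Rnr1 moved from -0.82 to -1.08 and mt-Cytb from 0.40 to 0.14. No such median was taken for the male pair alone.

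**Figure D3:**
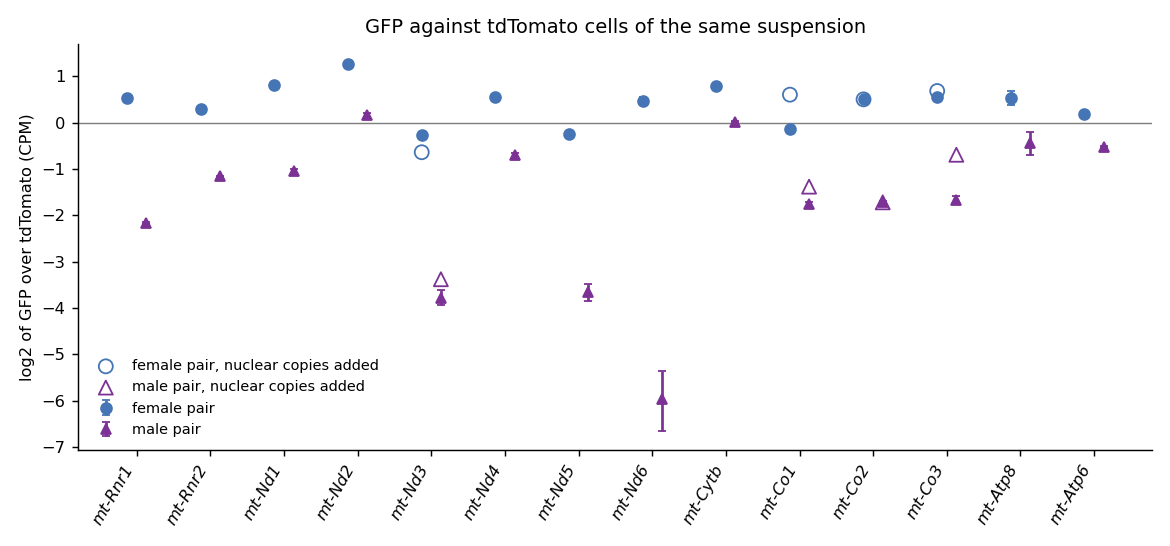
Log2 ratio of GFP over tdTomato cells of the same suspension (vertical axis, from CPM without a prior count) for the 2 rRNAs and the 12 mRNAs with counts in all 4 libraries, with circles for the female and triangles for the male pair. Bars are exact 95% binomial intervals for counting error, and open symbols include near-identical nuclear copies. Most female ratios sit above 0 and most male ratios below, down to mt-Nd6 at 62.6-fold lower.

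The male and female libraries of a colour were set side by side in the same way, though sex and suspension cannot be told apart here. Among GFP cells 12 of 13 mRNAs were lower in the male library and mt-Nd4l was at 0 in both, with a median log2 ratio of -1.67 beside -0.18 over all genes. At least 2-fold lower in male GFP were 9, where 40.4% of all genes tested were, and 0 were 2-fold higher, where 27.9% were. mt-Nd6 was 75.4-fold lower in male than in female GFP (49.2 to 122), mt-Nd5 11.1-fold (9.78 to 12.6) and mt-Nd3 8.31-fold (7.41 to 9.35). Among tdTomato cells 7 mRNAs were higher and 6 lower in the male library, with a median of 0.16 beside -0.02. There 0 were 2-fold higher, where 20.6% of all genes tested were, and 1, mt-Nd4l, was 2-fold lower, where 21.6% were. The 12 mRNAs tested lay between -0.67 (mt-Atp8) and 0.45 (mt-Nd3) on the log2 scale, with a difference below 2-fold for each of them.

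Near-identical nuclear copies held counts beside 5 of the mRNAs. The nucleus holds pieces of mitochondrial DNA, and a read that fits both places can be given to either. Among the annotated transcripts outside mitochondrial DNA, 6 with at least 95% identity to an mRNA of it had a row in the table. The mt-Co3 copy Gm28437 is identical over 783 bases and had 83705 counts in female GFP and 60928 in female tdTomato, and 24029.7 in male GFP against 53135 in male tdTomato. mt-Co3 itself had 10002 counts in female GFP and 8122 in female tdTomato, and 1876 in male GFP against 8794 in male tdTomato. Gm29216, 99.8% identical to 483 bases of mt-Co1, had 55855 counts in female GFP and 28816 in female tdTomato, and 8877 in male GFP against 27551 in male tdTomato. mt-Co1 had 28545 counts in female GFP and 36886 in female tdTomato, and 5835 in male GFP against 29117 in male tdTomato, so that its copy held more counts than the gene in both GFP libraries and fewer in both tdTomato libraries. The copy of mt-Co2, Gm13341, stayed at or below 81.0 counts. Gm10222, identical to 294 of the 297 bases of mt-Nd4l printed above, had 61 counts in female GFP and 413 in female tdTomato, and 7 in male GFP against 459 in male tdTomato. Gm28438, 99.7% identical to mt-Nd3, had 0 counts in female GFP and 1477 in female tdTomato, and 99.7 in male GFP against 0 in male tdTomato. Levels of these mitochondrial genes are uncertain for that reason, and the copies' counts cannot be told apart from mitochondrial ones.

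With the copies added, an alternative chosen after the data were seen, mt-Co3 was 1.62-fold lower in male GFP than in male tdTomato instead of 3.17-fold, and mt-Co1 2.60-fold instead of 3.37-fold. In the female pair mt-Co1 was 1.52-fold higher in GFP cells, instead of at 0.916 of the tdTomato level. mt-Nd3, with its copy Gm28438, was 10.4-fold lower in male GFP. mt-Nd4l then had values in all libraries and was 44.3-fold lower in male GFP than in male tdTomato (21.3 to 111) and 6.19-fold lower in female GFP than in female tdTomato (4.73 to 8.23). With the copies, male GFP was the lowest library for each of these 4 genes.

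**Figure D4:**
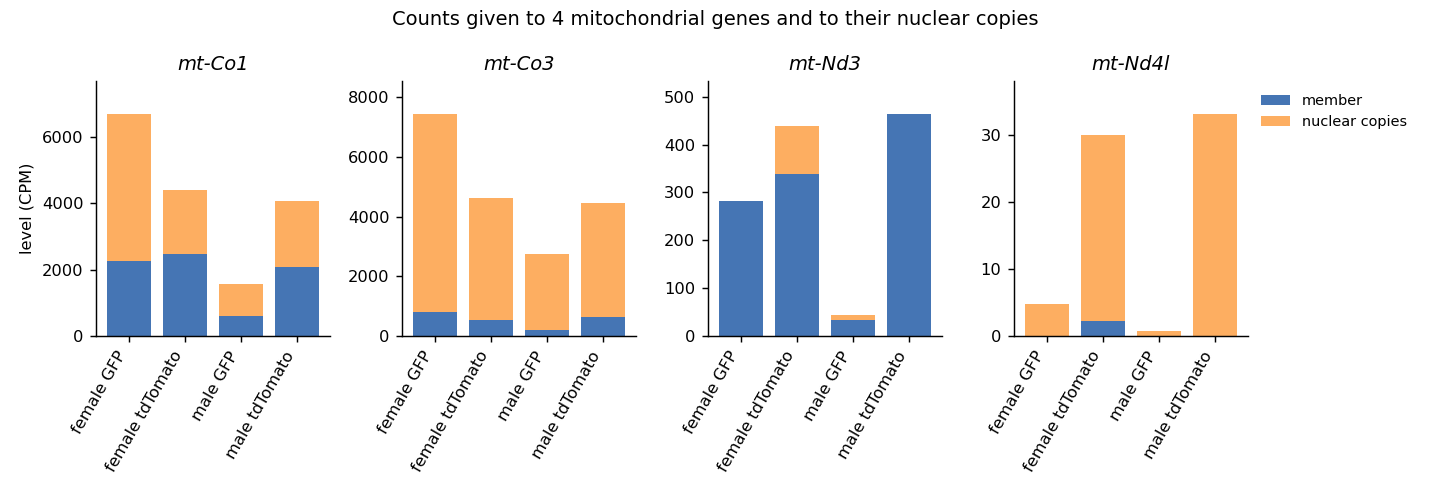
Level in CPM (vertical axis, 1 scale per panel) of mt-Co1, mt-Co3, mt-Nd3 and mt-Nd4l in each library, with counts of the gene itself in blue and of its near-identical nuclear copies in orange. The copies take most of the mt-Co3 and mt-Nd4l signal, and male GFP has the lowest sum in each panel.

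The order of the mRNAs within a library was largely kept while their proportions moved in male GFP. Ranks of the 13 mRNAs per kilobase correlated between libraries at a Spearman rho of 0.863 to 0.978, across genes of shared sequence and length, as a description. mt-Co2 and mt-Atp6 took the top 2 places in every library. With the copies added, mt-Co3 was first or second instead, at 9465 CPM per kilobase in female GFP and 5890 in female tdTomato, and 3518 in male GFP against 5682 in male tdTomato. As a share of the counts of the 13 mRNAs, complex IV made up 36.2% in female GFP and 39.5% in female tdTomato, and 23.3% in male GFP against 39.9% in male tdTomato. Complex III, that is mt-Cytb, made up 10.7% in female GFP and 8.28% in female tdTomato, and 19.2% in male GFP against 9.83% in male tdTomato. Complex V stood at 21.6% in female GFP and 25.3% in female tdTomato, and at 30.1% in male GFP against 22.3% in male tdTomato. Complex I, at 26.9% to 31.6%, had a narrower range, and mt-Nd1, mt-Nd2 and mt-Nd4 held most of its counts. With the copies added, complex IV made up 57.9% in female GFP and 55.7% in female tdTomato, and 45.3% in male GFP against 55.3% in male tdTomato.

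**Figure D5:**
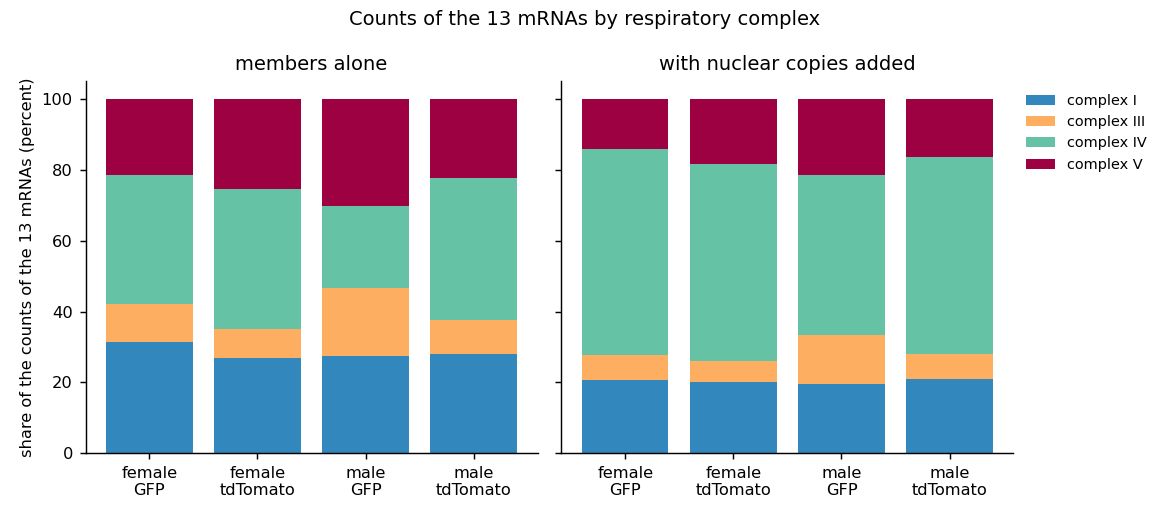
Share of the counts of the 13 mRNAs (percent, vertical axis) by respiratory complex in each library, for the mitochondrial genes alone (left) and with near-identical nuclear copies added (right). Male GFP has a smaller complex IV part and a larger complex III part than the other 3 libraries in both panels.

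Abundance and sequence of the mRNAs were set beside the male difference. Across the 12 mRNAs with counts in all libraries, the level per kilobase in tdTomato cells and the log2 ratio of the male pair had a Spearman rho of 0.06, and that of the female pair -0.01. The tdTomato level enters both measures, and no test was made. As a feature of sequence, mt-Nd6 had the fewest A of the 13 mRNAs, 22.2% of its bases, and the shortest longest run of A, 3 bases. mt-Nd2 had the longest run, 8 bases. mt-Nd5, with a run of 7, and mt-Nd3, with 5, were as long in A runs as mt-Nd4 (7) and mt-Cytb (5), whose male ratios were far closer to 1. The part of these features in the male difference was not tested.

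Transfer RNAs were barely recorded. Their summed counts were 806 in female GFP and 1372 in female tdTomato, and 167 in male GFP against 1095 in male tdTomato, under 0.01% of any library. Of the 21 genes, 7 reached 10 counts in some library: mt-Ts1 and the tRNAs of glutamine (mt-Tq), glutamate (mt-Te), cysteine (mt-Tc), alanine (mt-Ta), asparagine (mt-Tn) and proline (mt-Tp). The other 14 had at most 9 counts. All 7 are among the 8 tRNA genes of the table that are read from the light strand, and none of the 13 heavy-strand tRNA genes reached 10. mt-Ts1 alone made up 80.8% to 93.7% of tRNA counts, with 755 counts in female GFP and 1182 in female tdTomato, and 135 in male GFP against 963 in male tdTomato. It faces the end of mt-Co1, and stood at 26.4 counts per 1000 mt-Co1 counts in female GFP against 32.0 in female tdTomato, and at 23.1 in male GFP against 33.1 in male tdTomato. Per 1000 counts of mt-Co1 and its nuclear copies it stood at 8.94 in female GFP against 18.0 in female tdTomato, and at 9.18 in male GFP against 16.99 in male tdTomato, so the ratio to mt-Co1 depended on the copies. Without strand, its reads and those of the heavy-strand transcript across it cannot be told apart. mt-Tq had 14 counts in female GFP and 56 in female tdTomato, and 2 in male GFP against 41 in male tdTomato. mt-Tn, with 2 counts in female GFP and 12 in female tdTomato, and 0 in male GFP against 10 in male tdTomato, had the smallest adjusted p of any member in edgeR, 0.674. It passed the filter through the tdTomato libraries only.

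The nuclear genes that serve mitochondrial DNA did not pass the test either, with 0 genes called by edgeR in each of the lists given next. Of 15 genes for copying and transcription, 11 were tested, with median log2 ratios of -0.79 in the female and -0.55 in the male pair. Ssbp1, the single-strand binding protein of the replication machinery, had 248 CPM in female GFP and 72.8 CPM in female tdTomato, and 491 CPM in male GFP against 125 CPM in male tdTomato. It was higher in GFP cells of both suspensions and highest in male GFP, where the mitochondrial transcripts were lowest. Polg2, the accessory subunit of the mitochondrial polymerase, had 98.2 CPM in female GFP and 48.9 CPM in female tdTomato, and 116 CPM in male GFP against 86.3 CPM in male tdTomato. Polg had 50.5 CPM in female GFP and 28.7 CPM in female tdTomato, but 11.1 CPM in male GFP against 16.3 CPM in male tdTomato. Of 18 genes for processing and decay of mitochondrial RNA, 15 were tested, with medians of -0.92 and -2.90. Summed levels of both lists were higher in male GFP than in male tdTomato, at 637 against 299 CPM for copying and transcription and 663 against 524 CPM for processing and decay, so sum and median differed in sign. Rexo2, an exonuclease that clears short RNA, had 446 CPM in female GFP and 167 CPM in female tdTomato, and 145 CPM in male GFP against 161 CPM in male tdTomato. Slirp, which binds mitochondrial mRNAs, had 108 CPM in female GFP and 205 CPM in female tdTomato, and 189 CPM in male GFP against 165 CPM in male tdTomato. Fastkd2 had 3.96 CPM in female GFP and 29.7 CPM in female tdTomato, and 179 CPM in male GFP against 5.68 CPM in male tdTomato.

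The nuclear partners of the mitochondrial subunits were lower in male than in female GFP, with median log2 ratios of -1.07 for complex I and -1.12 for complexes II to V, beside -0.18 over all genes tested. The 37 nuclear complex I genes summed to 11330 CPM in female GFP and 8561 CPM in female tdTomato, and to 5831 CPM in male GFP against 6845 CPM in male tdTomato. Their median log2 ratios of GFP over tdTomato were 0.36 in the female and -0.36 in the male pair. The 38 nuclear genes of complexes II to V summed to 14140 CPM in female GFP and 12040 CPM in female tdTomato, and to 6761 CPM in male GFP against 9202 CPM in male tdTomato, with medians of 0.12 and -0.37. Cox6c, a complex IV subunit, had 1649 CPM in female GFP and 1365 CPM in female tdTomato, and 452 CPM in male GFP against 966 CPM in male tdTomato. The 77 mitochondrial ribosomal protein genes tested had medians of -0.03 and -1.54, while their summed level was 4284 CPM in male GFP against 3277 CPM in male tdTomato. In male GFP 27 of the 78 listed were at 0 counts, against 2 in male tdTomato. The 9 genes of mitochondrial mass had medians of 0.31 and -2.64 and summed to 1494 CPM in male GFP against 1119 CPM in male tdTomato. Hspd1 and Hspe1, chaperones of the mitochondrial matrix, had their highest levels in male GFP, at 659.5 and 715 CPM. Vdac2 of the same list ran the other way in the male pair. It had 219 CPM in female GFP and 98.6 CPM in female tdTomato, and 0.1065 CPM in male GFP against 87.6 CPM in male tdTomato. The 4 biogenesis regulators tested had medians of -2.11 and -5.36, and the 7 stress response genes 0.57 and -0.29. Tfam, which packs mitochondrial DNA and starts its transcription, was looked at after its values were seen and had 940 counts in female GFP and 162 in female tdTomato, and 2 in male GFP against 1 in male tdTomato.

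Markers of other cell types that digested aorta can hold were summed beside these levels. The 6 fibroblast markers summed to 3753 CPM in female GFP and 3415 CPM in female tdTomato. In the male suspension the sum was 612 CPM in GFP and 4080 CPM in tdTomato cells, with Dcn at 153 and Lum at 2.77 CPM in male GFP. Pi16 ran the other way in the male pair, at 88.4 CPM in GFP against 61.4 CPM in tdTomato cells. Col1a1 was lower in GFP cells of both pairs alike, at log2 ratios of -1.48 (female) and -1.43 (male). So was Pdgfra, at -8.77 (female) and -6.73 (male). None of the 6 was at 0 in male GFP or in either tdTomato library, and 1 was at 0 in female GFP. Endothelial markers summed to 15.6 and 12.7 CPM in the female and male GFP libraries, against 362 and 228 CPM in the tdTomato libraries of the same suspensions. Macrophage markers stayed at or below 73.9 CPM in sum in every library, and Schwann cell markers summed to 127 and 109 CPM in the female and male GFP libraries, against 8.23 and 11.7 CPM in tdTomato. The 6 adipocyte markers summed to 245 CPM in female GFP and 379 CPM in female tdTomato, and to 348 CPM in male GFP against 193 CPM in male tdTomato, with Fabp4 the most abundant at 315 CPM in male GFP. Ucp1, the defining gene of brown fat, was at 0 in 3 libraries and at 0.288 CPM in male tdTomato. Cardiomyocyte markers, of which 5 of 8 were in the table, summed to 155 CPM in male GFP, while the other libraries had 97.9 to 104 CPM. Of that sum in male GFP Ryr2 made up 153.9 CPM, while Tnnt2 was at 0.319 CPM there and at 29.7 to 60.2 CPM in the other libraries. The part of these cell types in the mitochondrial levels was not tested.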

How the data were processed

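Sorted aortic cells gave 4 libraries, 2 of GFP and 2 of tdTomato cells, from 2 suspensions. Per the labels' protocols, the SMART-Seq v4 kit, which does not mark strand, copied RNA from an oligo(dT) primer, and the cDNA was amplified and cut with a transposase. HISAT2, StringTie, fastp and the GRCm39 build are named in the submitters' processing notes, without versions. Which annotation release and counting program were used, and how reads that fit several places were handled, is not given in the sources used here. Per gene, the authors deposited expected counts, not scaled between libraries, of which 59.4% to 69.1% per library were whole (tolerance 1e-06).

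Counts were rounded. Names and lengths came from GENCODE M21 by identifier (76.4% of genes had a symbol). CPM used library totals after TMM scaling (factors 0.923 for female GFP, 1.07 for female tdTomato, 0.931 for male GFP, 1.08 for male tdTomato). Log2 ratios used a prior count of 2, and folds none, with exact 95% binomial intervals. With PCR and no molecular identifiers these cover counting error only, and 3 counts is the floor of a library. Genes passing filterByExpr at 10 counts were tested with edgeR 4.0.16 in R 4.3.3 (quasi-likelihood, Benjamini-Hochberg adjustment, threshold 0.05), with the suspension as a block because the series' design text puts GFP and tdTomato cells of a sex in 1 suspension. Male minus female deviations of the 2 colours correlated at 0.0546 over 15055 genes. DESeq2 1.42.0, limma-voom (limma 3.58.1), other scalings and filters, and leaving out each library, without the block, were alternatives. The edgeR step was tested on simulated data with 1 dispersion for every gene. It recovered changed genes at a low dispersion and none at the common dispersion of these libraries. Nuclear copies were found with blastn 2.17.0 at 95% identity or more over at least 50 bases, and 5 matched copies without a row were not analysed here. All mRNAs and rRNAs were named, and tRNAs from 10 counts. Of other lists, some of the 3 most abundant tested members were named, besides Ucp1, Tfam, Pdgfra, Col1a1 and Pi16. The members, lists and tests were chosen with earlier results of these data known.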

Additional observations from a re-analysis of the deposited data

Results flagged for a closer look

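In all, 11 differences between the suspensions stood out because GFP cells lay on one side of tdTomato cells in the female and on the other in the male suspension. Each rests on 1 library per colour and suspension, and the difference was not tested. The values are male pair minus female pair on the log2 scale. The median of the 13 mRNAs differed by -1.55. Both rRNAs were among them, with mt-Rnr1 at -2.69 and mt-Rnr2 at -1.46. Of complex I, mt-Nd6 stood at -6.34, mt-Nd1 at -1.85 and mt-Nd4 at -1.24. Of complex IV, mt-Co2 stood at -2.22 and mt-Co3 at -2.21. Of complex V, mt-Atp8 stood at -0.97 and mt-Atp6 at -0.70. The proline tRNA mt-Tp, at 1.79, ran the other way on 4 counts in male GFP against 3 in male tdTomato, and 5 in female GFP against 16 in female tdTomato. With library totals mt-Atp6 was lower in GFP cells of both suspensions.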

How the results depend on the processing

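No member passed the threshold under any alternative, and the number of genes called stayed at 0 except with DESeq2, which called 1157. Over the members and alternatives, 233 values kept their direction and 26 reversed, 9 of them without male GFP. With DESeq2 size factors or DESeq2's own test the log2 change of GFP over tdTomato was 0.06 for mt-Nd1, 0.10 for mt-Nd4 and 0.02 for mt-Atp6. Without the suspension as a block (no pairing) mt-Nd1 was at 0.11 and mt-Nd4 at 0.06, and in limma-voom at 0.20 and 0.11. Scaled by library totals mt-Atp8 was at -0.17. Leaving out 1 library gave -2.04 to 0.51 for mt-Rnr1, -1.01 to 0.24 for mt-Rnr2, -0.88 to 0.74 for mt-Nd1, -0.63 to 0.58 for mt-Nd4, -5.79 to 0.39 for mt-Nd6, -1.80 to 0.01 for mt-Co1, -1.52 to 0.39 for mt-Co2, -1.48 to 0.45 for mt-Co3, -0.74 to 0.85 for mt-Atp8 and -0.49 to 0.26 for mt-Atp6. Fits that left out 1 library had no block. Without male GFP 10 mRNAs were higher and 3 lower in GFP. With all libraries 3 were higher and 9 lower with the block, and 5 and 7 without it. For the mRNAs' median, DESeq2 size factors gave 0.63 (female pair), -0.81 (male pair) and -1.55 (male over female GFP), library totals 0.28 and -1.26 for the 2 pairs, and mRNAs that overlap no other member -1.72 (male pair), -1.96 (GFP) and 0.31 (tdTomato). Adding the nuclear copies gave 0.53 (female pair) and 0.08 (tdTomato). The mitochondrial share was 8.12% in female GFP against 7.25% in female tdTomato, and 3.13% in male GFP against 8.0% in male tdTomato, without the 100 top nuclear genes. With the copies it was 6.99% in female GFP against 6.02% in female tdTomato, and 2.52% in male GFP against 6.49% in male tdTomato. Complex I then made up 20.8% against 20% of the mRNA counts in the female pair, and 19.7% against 20.8% in the male pair, GFP against tdTomato. The causes were not tested. For the 14 tRNAs with at most 9 counts, differences were not detectable at this depth.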
